A study of Homo sapiens with 9 samples.

Results

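The genes of the mitochondrial respiratory chain and ATP synthase were followed in HepG2 cells, a human liver cancer cell line, grown with glutamine (Gln) or deprived of it. The members were every row of the FPKM table whose symbol began with NDUF, UQCR, ATP5 or COX4 to COX8, together with the 13 protein-coding genes of mitochondrial DNA, which came to 109 of the 22587 genes in the table. They comprised 90 nuclear protein-coding genes, 6 nuclear non-coding transcripts that carry a member's name and the 13 mitochondrial genes. FPKM is the number of sequenced fragments divided by gene length and by the library's total. Levels of different genes compare on this scale only where the length used matches the messenger, which was not checked. Gln-added cells, cells deprived of Gln for 12 h and cells deprived for 24 h gave 3 libraries each, 9 in all. All 3 groups were HepG2 cells in high-glucose DMEM with serum, and the only labelled difference was the Gln supply and its duration. The labels give no hour for the Gln-added cells, so no control is matched to 12 h or to 24 h. Time in culture and any change of medium therefore cannot be told apart from the deprivation, also between 12 h and 24 h. The labels name GlutaMAX, a stable Gln dipeptide, as the supply of the Gln-added cells, although the submitters' treatment text places it in the deprivation medium as well. No label says whether the 3 libraries of a group came from separate cultures, so the spread between them may be technical, and HepG2 stands for 1 tumour line.

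The respiratory chain passes electrons from NADH and succinate to oxygen through complexes I to IV and pumps protons across the inner mitochondrial membrane, and ATP synthase, or complex V, lets the protons flow back to make ATP. Complex II is made by the nuclear genome alone, while complexes I, III, IV and V are each built from subunits of both genomes. Mitochondrial DNA is transcribed in the organelle as long polycistronic RNAs that are cut into single messengers, and the nuclear subunits are made in the cytosol and imported. In liver cells much of the carbon that Gln supplies enters the tricarboxylic acid cycle, whose NADH feeds complex I.

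Most nuclear respiratory chain messengers fell under Gln deprivation, while most mitochondrial messengers showed no change that passed the test. Of the 85 nuclear protein-coding members that passed the filter of a mean of at least 0.5 FPKM, 59 were lower at 12 h, 3 were higher and 23 did not pass an adjusted p of 0.05 in limma's test, against 31% of all 11880 tested genes lower and 29.1% higher. At 24 h 63 were lower and 3 were higher, against 31.7% of all tested genes lower and 33% higher. The median log2 fold change of the nuclear members was -0.28 at 12 h and -0.34 at 24 h, beside -0.02 and 0.01 over all tested genes. At 12 h 77 of the 85 lay below 0, within a range from -0.88 to 0.61. The 5 nuclear members that were not tested, ATP5MGL, COX6B2, COX7A1, COX7B2 and COX8C, stayed under 0.1 FPKM in every library, and COX7A1, COX6B2 and COX8C are known as subunits of muscle or testis. Because FPKM are shares of a library, less of a messenger per cell and more of other RNA cannot be told apart in these bulk samples.

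Of the 13 mitochondrial genes, 1 was lower and 3 were higher at 12 h, and 1 was lower and 2 were higher at 24 h, with medians of -0.03 and 0.01. In limma's test the nuclear falls were spread over all complexes, as the plot of fold change by complex shows. With length and GC content removed, fewer members were called lower at 12 h in complexes I, III and IV and in ATP synthase. The count of NDUFAF assembly factors called lower stayed at 3 of 8. The share of tested members that fell was highest in ATP synthase, with 17 of 18 at 12 h and 18 of 18 at 24 h, and lowest in the NDUFAF assembly factors of complex I, with 3 of 8 and 4 of 8.

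**Figure D1:**
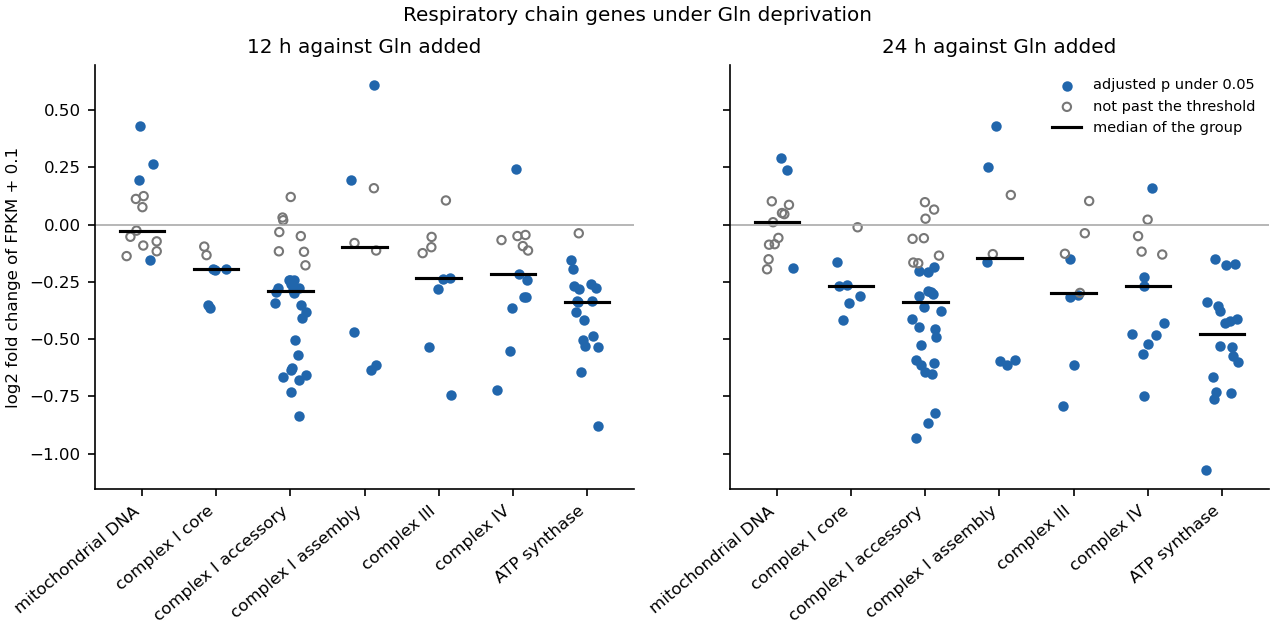
Log2 fold change (vertical axis, FPKM + 0.1) of each tested protein-coding member against Gln added, at 12 h on the left and 24 h on the right, by group on the horizontal axis. Filled points passed an adjusted p of 0.05, open points did not and bars are group medians. The ATP synthase medians lie at -0.34 and -0.48 and the mitochondrial-DNA medians at -0.03 and 0.01.

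Within each library the summed FPKM of the 13 mitochondrial genes was divided by the summed FPKM of the 82 nuclear subunit genes, a ratio that no scaling between libraries can change. It stood at 9.75, 10.8 and 10.2 in the Gln-added libraries, 12.6, 12.8 and 12.7 at 12 h and 11.6, 15.2 and 12.96 at 24 h. Every deprived library lay above every Gln-added library, and replicate 2 of the 24 h group stood highest of all 9. The mean rose from 10.2 ± 0.52 (SD, n = 3) to 12.7 ± 0.092 and 13.2 ± 1.85, which was 1.24 and 1.29 times the Gln-added mean, and 1.20 times at 24 h without replicate 2 of that group. The nuclear sum went from 6298 ± 59.0 FPKM to 5181 ± 136 and 4932 ± 307 FPKM. The mitochondrial sum was 64538 ± 2700, 65823 ± 1451 and 64970 ± 5025 FPKM in the same order, so its groups differed by less than their spread.

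The same ratio was taken within each complex that both genomes build. It moved most in complex III, from a mean of 2.43 ± 0.17 under Gln supply to 3.94 ± 0.049 after 12 h and 3.62 ± 0.49 after 24 h without it. That ratio has a single mitochondrial gene, CYTB, above it. In complex I the ratio was 12.4 ± 0.49, 15.7 ± 0.13 and 15.8 ± 2.43, and in ATP synthase 3.82 ± 0.37, 4.88 ± 0.42 and 5.26 ± 0.98. Complex IV had the highest ratio in every group and the smallest change, at 20.4 ± 0.94, 23.3 ± 1.08 and 25.1 ± 3.24. In all 4 complexes the deprived libraries lay above the Gln-added ones without overlap. Without ND6, which lies on the other strand, and the short, overlapping ATP8 and ND4L, the ratio of all complexes changed by 1.26 and 1.31 times.

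**Figure D2:**
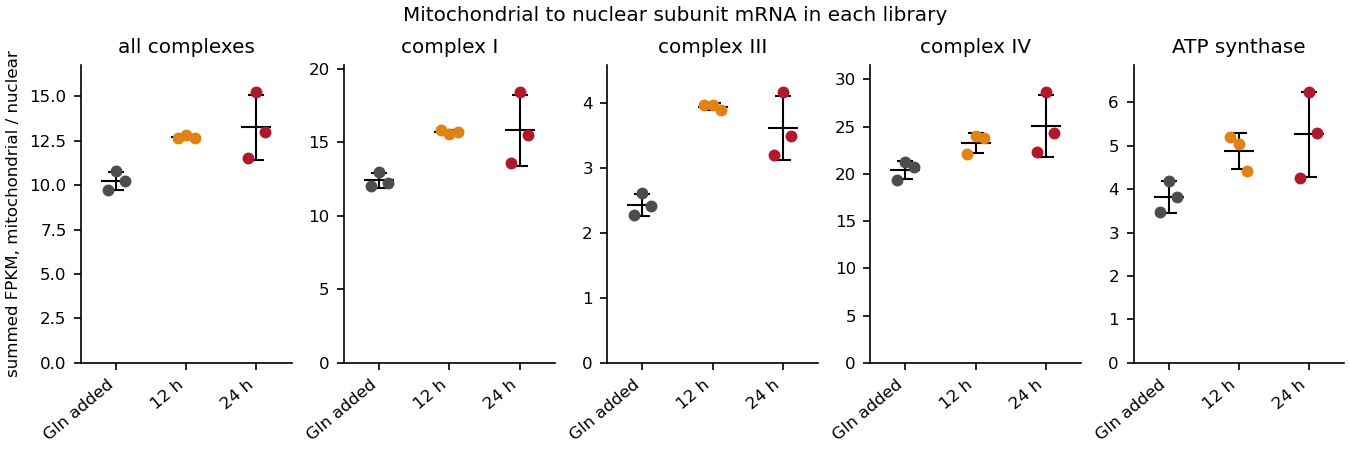
Summed FPKM of mitochondrial genes over that of nuclear subunit genes (vertical axis, from 0) in each library, for all complexes and for each complex apart. Points are the 3 libraries of a group, bars mean and SD. For all complexes the Gln-added libraries lie between 9.75 and 10.8 and the deprived ones between 11.6 and 15.2.

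ATP synthase fell in 17 of its 18 tested nuclear genes at 12 h and in all 18 at 24 h. It consists of a catalytic head with its rotor (ATP5F1 subunits), a ring of c subunits in the membrane (ATP5MC genes), a peripheral stalk (ATP5P subunits) and small membrane subunits (ATP5M genes). ATP5MC1, which encodes the c subunit, had 130.2, 133 and 135 FPKM in the Gln-added libraries, 76.4, 69.5 and 70.4 FPKM after 12 h and 61.2, 59.7 and 68.7 FPKM after 24 h of deprivation. Every deprived library lay far below every Gln-added one, and no nuclear member fell further at either time. By limma the log2 difference came to -0.88 (SE 0.05, adjusted p = 2.96e-07) after 12 h and -1.07 (SE 0.05, adjusted p = 4.45e-08) after 24 h. A two-sided exact permutation test of 3 libraries against 3 gave p = 0.1, the smallest value that this design allows.

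ATP5MC2 and ATP5MC3 encode the same mature c subunit behind other import signals. ATP5MC2 had 29.5, 29.2 and 28.3 FPKM where Gln was added, 24.0, 21.2 and 21.6 FPKM where it was withheld for 12 h and 17.8, 16.8 and 17.7 FPKM for 24 h. ATP5MC3 had 69.3, 66.1 and 73.2 FPKM under Gln supply, against 52.5, 46.9 and 47.5 FPKM at 12 h without it and 46.9, 42.8 and 48.1 FPKM at 24 h. Both fell as well, with each deprived library under each Gln-added one, and ATP5MC2 fell further between 12 h and 24 h. The log2 fold change of ATP5MC2 was -0.38 ± 0.05 (SE) at 12 h and -0.73 ± 0.05 at 24 h, and that of ATP5MC3 -0.51 ± 0.06 and -0.60 ± 0.06. Of the FPKM of the 3 genes together, ATP5MC1 made up 57.4% ± 0.74 under Gln supply, then 50.3% ± 0.31 and 49.9% ± 1.25 after 12 h and 24 h. ATP5MC3 made up 30.1% ± 1.02, 34.2% ± 0.16 and 36.3% ± 0.83, and neither share overlapped between deprived and Gln-added libraries. The level of these shares depends on the lengths used for FPKM, 646 bases for ATP5MC1, 2850 for ATP5MC2 and 3430 for ATP5MC3. In fragments the order differed. The Gln-added libraries held 2997 to 3093 for ATP5MC1, 2866 to 3006 for ATP5MC2 and 7924 to 8926 for ATP5MC3.

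The small membrane subunit ATP5ME had 161, 142 and 140.5 FPKM in the Gln-added libraries, 99.9, 98.8 and 85.4 FPKM after 12 h and 95.1, 78.8 and 87.3 FPKM after 24 h of deprivation. It changed by -0.64 and -0.76 on the log2 scale, but 61.3% of its exonic bases in GENCODE v44 overlap a gene on the opposite strand. ATP5F1D, the delta subunit of the central rotor, had 57.3, 57.2 and 58.7 FPKM where Gln was added, 46.7, 45.3 and 44.9 FPKM where it was withheld for 12 h and 43.5, 37.3 and 39.2 FPKM for 24 h, and fell by 0.34 and 0.53 on the log2 scale. The catalytic beta subunit ATP5F1B had the highest FPKM of the nuclear members and the smallest change of the tested ATP synthase genes. It had 378, 363 and 370.3 FPKM under Gln supply, against 366, 357 and 359 FPKM at 12 h without it and 354, 316 and 332 FPKM at 24 h. The 12 h group overlapped the Gln-added group, with a difference of -0.04 (limma adjusted p = 0.456), and the 24 h group lay just below it at -0.15 (adjusted p = 0.00906). ATP5F1A, the alpha subunit that alternates with beta in the head, fell by 0.33 and 0.41. With Gln added, ATP5F1A had a mean of 84.1 FPKM over a length of 6401 bases, and ATP5F1B 370.4 FPKM over 1759 bases. Their fragments lay closer, at 18564 to 19402 and 22295 to 23751 in those libraries. ATP5IF1, the inhibitor that blocks ATP hydrolysis when the proton gradient collapses, had 67.2, 63.1 and 63.7 FPKM in the Gln-added libraries, 58.3, 56.6 and 54.9 FPKM after 12 h and 59.7, 55.3 and 57.1 FPKM after 24 h of deprivation, a fall of 0.19 at 12 h and 0.17 at 24 h. ATP5F1E, the epsilon subunit, was read at or under 1.01 FPKM here far under its partners, and 23.2% of its exonic bases overlap an opposite-strand gene, and how its fragments were assigned is not stated.

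**Figure D3:**
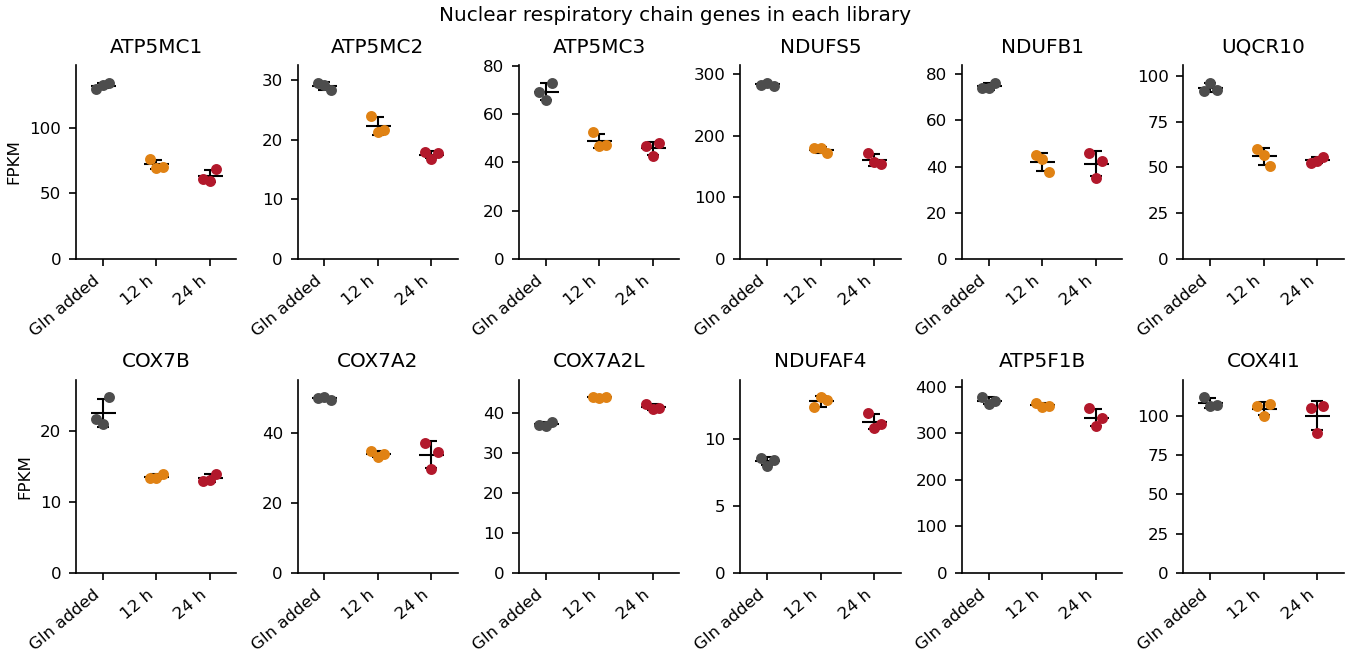
FPKM (vertical axes, each from 0) of 12 nuclear members in each library with Gln added and after 12 h and 24 h of deprivation. Points are libraries, bars mean and SD. ATP5MC1 goes from a mean of 132.5 to 72.1 and 63.2 FPKM, COX7A2L and NDUFAF4 go up, and the ATP5F1B and COX4I1 libraries overlap or nearly meet.

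Complex I, the NADH dehydrogenase, has core subunits that carry the flavin and the iron-sulfur clusters and a shell of accessory subunits. Accessory subunits held the larger falls: 22 of 30 were lower at each time, limma called none higher (1 at 12 h and 0 at 24 h at an unadjusted p of 0.05, 0 and 0 by voom, but NDUFB9 and NDUFS4 at both times with length and GC content removed), and their medians were -0.29 and -0.34. NDUFB1, a small membrane-arm subunit, had 74.0, 73.9 and 76.4 FPKM where Gln was added, 44.9, 43.1 and 37.7 FPKM where it was withheld for 12 h and 45.7, 35.2 and 42.6 FPKM for 24 h. NDUFS5, the nuclear subunit of complex I with the highest FPKM, had 282, 286 and 281 FPKM under Gln supply, against 179, 179.9 and 172 FPKM at 12 h without it and 171, 157 and 153 FPKM at 24 h. Both groups of deprived libraries lay clear of the Gln-added ones for both genes. NDUFB1 changed by -0.84 ± 0.09 (SE) and -0.87 ± 0.09 and NDUFS5 by -0.68 ± 0.04 and -0.82 ± 0.04 on the log2 scale.

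NDUFA7, in the matrix arm, had 51.2, 60.5 and 54.9 FPKM in the Gln-added libraries, 36.8, 34.9 and 33.8 FPKM after 12 h and 28.6, 27.6 and 30.8 FPKM after 24 h of deprivation. It fell further between 12 h and 24 h, from -0.66 to -0.93, and 32.5% of its exonic bases are shared with another gene on the same strand. NDUFB3 had 28.5, 26.3 and 28.3 FPKM where Gln was added, 15.6, 16.1 and 18.4 FPKM where it was withheld for 12 h and 20.3, 16.6 and 17.8 FPKM for 24 h, with changes of -0.73 and -0.61. NDUFC1 had 30.9, 29.0 and 32.1 FPKM under Gln supply, against 25.4, 23.4 and 23.3 FPKM at 12 h without it and 20.7, 19.7 and 20.7 FPKM at 24 h, with changes of -0.35 and -0.59, and 19.5% of its exonic bases lie opposite another gene. For NDUFA7, NDUFB3 and NDUFC1 the deprived and the Gln-added libraries did not overlap. NDUFC2, which shares 18.6% of its exonic bases with the readthrough gene NDUFC2-KCTD14, had 10.9, 10.9 and 11.5 FPKM in the Gln-added libraries, 6.26, 6.32 and 9.07 FPKM after 12 h and 7.60, 11.2 and 11.3 FPKM after 24 h of deprivation, and only the 12 h change of -0.63 passed the test.

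Some accessory subunits showed no change that passed the test. NDUFA6 differed by -0.03 and -0.06, NDUFB9 by 0.03 and 0.10, NDUFA10 by 0.02 and -0.06 and NDUFS4 by 0.12 and 0.03, and the libraries of NDUFA6, NDUFB9 and NDUFA10 overlapped in both comparisons. The low-level NDUFA3 had 4.45, 5.47 and 4.55 FPKM where Gln was added, 3.64, 2.57 and 3.11 FPKM where it was withheld for 12 h and 3.99, 3.61 and 3.57 FPKM for 24 h, with changes of -0.63 and -0.36.

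Of the 7 core subunits, 5 were lower at 12 h and 6 at 24 h. NDUFV2, which carries an iron-sulfur cluster next to the flavin, had 94.2, 88.9 and 91.2 FPKM under Gln supply, against 71.5, 70.5 and 72.8 FPKM at 12 h without it and 74.7, 68.3 and 73.6 FPKM at 24 h. Its deprived groups lay near each other and well below the Gln-added group, and the log2 fold changes were -0.35 ± 0.04 (SE) and -0.34 ± 0.04, and 28.4% of its exonic bases are shared with a gene on the same strand. NDUFS7 was the core subunit with no call at either time, at -0.10 and -0.01, and 51.5% of its exonic bases lie opposite another gene. NDUFS1, the largest iron-sulfur subunit, fell by 0.19 and 0.16.

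The NDUFAF genes encode factors that build complex I and leave it again, and they held the clearest rise. NDUFAF4 had 8.59, 8.003 and 8.45 FPKM in the Gln-added libraries, 12.4, 13.1 and 12.9 FPKM after 12 h and 11.9, 10.8 and 11.1 FPKM after 24 h of deprivation. All 6 deprived libraries lay above the 3 Gln-added ones, with log2 fold changes of 0.61 (SE 0.05, adjusted p = 2.48e-06) at 12 h and 0.43 (SE 0.05, adjusted p = 2.55e-05) at 24 h by limma. NDUFAF2 rose by 0.25 at 24 h, and its 12 h value of 0.16 did not pass (adjusted p = 0.052 by limma). NDUFAF6 rose by 0.19 at 12 h, and its 24 h value was 0.13. NDUFAF1, which works with ACAD9 on the membrane arm, had 5.18, 4.39 and 5.89 FPKM where Gln was added, 3.12, 3.17 and 3.48 FPKM where it was withheld for 12 h and 3.15, 3.10 and 3.86 FPKM for 24 h, and NDUFAF8 had 50.1, 49.7 and 47.9 FPKM under Gln supply, against 32.2, 34.1 and 30.2 FPKM at 12 h without it and 32.5, 29.3 and 34.7 FPKM at 24 h. Both fell, by 0.64 and 0.61 at 12 h and by 0.59 and 0.61 at 24 h.

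Complex III, the cytochrome bc1 complex, fell in 5 of its 9 nuclear members at both times. UQCR10, one of its smallest subunits, had 92.0, 96.3 and 92.3 FPKM in the Gln-added libraries, 60.1, 56.9 and 50.7 FPKM after 12 h and 52.5, 53.5 and 55.8 FPKM after 24 h of deprivation, and 24.5% of its exonic bases lie opposite another gene. The ubiquinone-binding subunit UQCRQ had 58.9, 56.1 and 57.1 FPKM where Gln was added, 43.9, 37.6 and 37.4 FPKM where it was withheld for 12 h and 40.4, 34.9 and 37.4 FPKM for 24 h. In both genes each deprived library was under each Gln-added one, and UQCR10 changed by -0.74 ± 0.06 (SE) and -0.79 ± 0.06 and UQCRQ by -0.54 ± 0.07 and -0.61 ± 0.07. The hinge protein UQCRH had the highest FPKM of these nuclear members, at 292 ± 4.60 (SD, n = 3) with Gln added, and fell by 0.23 and 0.31. UQCRHL, a near-identical copy of it, took 5.89% to 9.38% of their joint FPKM in a library. How fragments were divided between such copies, or between members and their many processed pseudogenes, is not stated. UQCRFS1, the Rieske iron-sulfur protein, differed by 0.11 at 12 h and 0.10 at 24 h, with adjusted p = 0.0595 and 0.0609 by limma. UQCRC1 and UQCRC2 form the core of the complex. UQCRC1 differed by -0.12 and -0.04 without passing the test, and UQCRC2 fell by 0.24 and 0.15.

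In complex IV, cytochrome c oxidase, 7 of 13 tested nuclear members were lower at 12 h and 8 at 24 h, and 1 was higher at both. COX7B, needed for the assembly of the complex, had 21.7, 21.0 and 24.7 FPKM under Gln supply, against 13.3, 13.3 and 13.9 FPKM at 12 h without it and 12.9, 13.1 and 13.9 FPKM at 24 h. Its changes of -0.72 ± 0.06 (SE) and -0.75 ± 0.06 were the largest of the complex. COX7A2 had 50.01, 50.4 and 49.6 FPKM in the Gln-added libraries, 35.0, 33.2 and 34.0 FPKM after 12 h and 37.3, 29.8 and 34.7 FPKM after 24 h of deprivation. COX7A2L, a related protein that joins complex III to complex IV in supercomplexes, had 37.0, 36.8 and 37.9 FPKM where Gln was added, 44.1, 43.9 and 44.1 FPKM where it was withheld for 12 h and 42.4, 41.1 and 41.4 FPKM for 24 h. The pair thus moved apart: COX7A2 fell by 0.55 and 0.56, COX7A2L rose by 0.24 (limma adjusted p = 7.30e-05) and 0.16 (adjusted p = 0.00104), and in neither gene did deprived and Gln-added libraries overlap. COX7A2L made up 42.7% ± 0.60 of their joint FPKM under Gln supply, and 56.4% ± 0.62 and 55.2% ± 2.48 after 12 h and 24 h without it. The level of that share depends on the lengths used for FPKM, 3190 bases for COX7A2L and 1462 for COX7A2.

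NDUFA4, once counted in complex I and now placed in complex IV, had 59.2, 59.0 and 58.6 FPKM under Gln supply, against 49.7, 45.4 and 47.1 FPKM at 12 h without it and 45.4, 40.04 and 41.8 FPKM at 24 h and changed by -0.31 and -0.48. Its paralogue NDUFA4L2, known as a hypoxia-induced gene, stayed between 0.447 and 0.740 FPKM in all 9 libraries with overlapping groups. COX6B1 had 202, 198 and 194 FPKM in the Gln-added libraries, 156, 159 and 147 FPKM after 12 h and 149, 147 and 146 FPKM after 24 h of deprivation, and its changes were -0.36 and -0.43. COX8A differed by -0.24 and -0.52, its 12 h libraries overlapped the Gln-added ones, and 35.4% of its exonic bases are shared with a same-strand gene. The subunits COX4I1 and COX6A1 showed no change that passed. COX4I1, an early subunit that binds the catalytic core, had 112, 107 and 107 FPKM where Gln was added, 107, 100.2 and 108 FPKM where it was withheld for 12 h and 105, 89.5 and 106 FPKM for 24 h, and COX6A1 had 245, 264 and 242 FPKM under Gln supply, against 258, 233 and 226 FPKM at 12 h without it and 262, 216 and 249 FPKM at 24 h. Their differences lay between -0.12 and -0.05 and passed the test at neither time.

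The 13 mitochondrial genes encode 7 subunits of complex I, 1 of complex III, 3 of complex IV and 2 of ATP synthase. Their levels ran from 318 ± 53.5 FPKM (SD, n = 3) for ND6 to 10764 ± 386 FPKM for COX1 with Gln added. CYTB, the cytochrome b of complex III, had 1960, 2209 and 2036 FPKM in the Gln-added libraries, 2863, 2802 and 2698 FPKM after 12 h and 2325, 2764 and 2521 FPKM after 24 h of deprivation. Every deprived library lay above every Gln-added one, with log2 fold changes of 0.43 (SE 0.06, adjusted p = 0.000183) at 12 h and 0.29 (SE 0.06, adjusted p = 0.00212) at 24 h by limma. ND1, at the junction of the arms of complex I, had 5511, 5652 and 5351 FPKM where Gln was added, 6765, 6681 and 6410 FPKM where it was withheld for 12 h and 5812, 7172 and 6538 FPKM for 24 h, and ND2, in the proton-pumping membrane arm, had 2931, 3096 and 2911 FPKM under Gln supply, against 3489, 3205 and 3537 FPKM at 12 h without it and 2891, 3493 and 3232 FPKM at 24 h. ND1 rose by 0.27 (limma adjusted p = 0.00526) at 12 h and by 0.24 (adjusted p = 0.00907) at 24 h without overlap. ND2 rose by 0.19 at 12 h (adjusted p = 0.0258), and at 24 h its libraries overlapped those with Gln added, at 0.10. Without the filter on low values CYTB was the 1 mitochondrial gene called at either time, and the calls of ND1, ND2 and ND4L were lost.

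The mitochondrial subunits of complex IV, which hold its catalytic core, showed no change that passed. COX1 had 10458, 11197 and 10638 FPKM in the Gln-added libraries, 10541, 10364 and 10210 FPKM after 12 h and 10843, 11618 and 10985 FPKM after 24 h of deprivation. COX2 had 7892, 8381 and 8282 FPKM where Gln was added, 7691, 7774 and 7871 FPKM where it was withheld for 12 h and 7009, 8194 and 7985 FPKM for 24 h. COX3 had 9383, 10415 and 9884 FPKM under Gln supply, against 10592, 10665 and 10796 FPKM at 12 h without it and 9984, 11142 and 10391 FPKM at 24 h. Differences of these genes were between -0.09 and 0.11, and only the 12 h libraries of COX2 and COX3 did not overlap those with Gln added. ND4 had 6845, 7577 and 7041 FPKM in the Gln-added libraries, 6566, 6488 and 6439 FPKM after 12 h and 5450, 7065 and 6321 FPKM after 24 h of deprivation. ND5 had 1805, 2146 and 1942 FPKM where Gln was added, 1978, 1787 and 1761 FPKM where it was withheld for 12 h and 1613, 1890 and 1803 FPKM for 24 h. ND3 had 2365, 2642 and 2582 FPKM under Gln supply, against 2960, 2473 and 2855 FPKM at 12 h without it and 2320, 2405 and 2564 FPKM at 24 h. None of ND3, ND4 and ND5 passed the test, and the lowest of their adjusted p values was that of ND4 at 24 h, at -0.19 (limma adjusted p = 0.0506). ND6, the only one of the 13 on the other strand of mitochondrial DNA, had 357, 257 and 340.2 FPKM in the Gln-added libraries, 358, 272 and 303 FPKM after 12 h and 304, 271 and 315 FPKM after 24 h of deprivation, and its libraries overlapped in both comparisons.

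ND4L, a small membrane subunit of complex I, had 5852, 5954 and 5785 FPKM where Gln was added, 5547, 5096 and 5178 FPKM where it was withheld for 12 h and 4950, 5568 and 4937 FPKM for 24 h. It was the mitochondrial gene that fell, by 0.15 at 12 h (limma adjusted p = 0.0281) and 0.19 at 24 h (adjusted p = 0.00946), while ND4, on the same messenger, differed by -0.14 and -0.19. At 12 h no mitochondrial gene was called lower when any of the 3 Gln-added libraries, or replicate 2 or 3 of the 12 h group, was left out, and at 24 h 3 were called lower without replicate 2 of that group. ATP8 had 1210, 1949 and 1904 FPKM under Gln supply, against 1873, 1631 and 1154 FPKM at 12 h without it and 1396, 1991 and 1777 FPKM at 24 h, a wide spread within each group, while ATP6, which shares its messenger, had 5504, 5949 and 5423 FPKM in the Gln-added libraries, 6254, 5988 and 5555 FPKM after 12 h and 4928, 6292 and 5852 FPKM after 24 h of deprivation. Both pairs overlap in the genome, and how fragments in a shared stretch were counted is not stated. The gene lengths that the FPKM steps imply equal the lengths in the reference for 13 of 13 genes, so ATP8 was counted over 207 bases and ND4L over 297, both short. The stretches around the overlaps are shown to mark the bases that both genes of a pair share. They are read from the plus strand of hg38, chrM:8497-8602 and chrM:10730-10796, with the shared bases in capitals, 46 for ATP8 and ATP6 and 7 for ND4L and ND4.
ATP8 and ATP6: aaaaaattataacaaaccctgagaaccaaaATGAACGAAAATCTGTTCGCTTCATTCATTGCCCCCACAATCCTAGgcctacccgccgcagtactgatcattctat
ND4L and ND4: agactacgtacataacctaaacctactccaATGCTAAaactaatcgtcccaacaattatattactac
Each capital run opens with the ATG that starts the second gene of its pair, near the end of the first.

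Between 12 h and 24 h the members moved little. Of the 85 nuclear members 12 were lower at 24 h than at 12 h and none was higher, against 10.5% of all tested genes lower and 9.57% higher, and limma called none of the 13 mitochondrial genes. At an unadjusted p of 0.05, 3 nuclear members were higher and 1 mitochondrial gene each was lower and higher, and voom called 1 nuclear member higher and 1 mitochondrial gene in each direction. ATP5MC2 had the largest of these steps, at -0.35 (SE 0.05, adjusted p = 0.000981), with the 24 h libraries below all 12 h libraries. NDUFC1 had the next lowest adjusted p among the nuclear members, at -0.24 (SE 0.05, adjusted p = 0.00829). NDUFAF4 came down by 0.18 from its 12 h level but stayed above that with Gln added. Leaving out single libraries moved the count of 12 to between 3 and 16, and it was 3 without replicate 2 of the 24 h group and 4 without either replicate 3 of that group or replicate 1 of the 12 h group. The count was 7 when any single Gln-added library was left out.

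The nuclear members are short genes, and short genes fell in these libraries in general. Their median length was 1299 bases against 3820 for all tested genes. All tested genes under 1000 bases had a median log2 fold change of -0.22 at 12 h and -0.14 at 24 h, and the 35 nuclear members of that length had -0.28 and -0.41. Over 2000 bases the medians were 0.01 and 0.04 for all genes and -0.26 and -0.17 for the 24 members. After a smooth trend of length and GC content was removed from each library, the nuclear median was -0.13 at 12 h, with 45 lower and 8 higher, against 33% and 32.1% of all 11422 genes with a length and GC value. At 24 h it was -0.23, with 57 lower and 6 higher, against 35.3% and 33.9%. By complex, those lower at 12 h and 24 h were 14 and 17 of 18 in ATP synthase. In complex I they were 18 and 18 of 30 accessory subunits, 3 and 6 of 7 core subunits and 3 and 4 of 8 NDUFAF factors. In complex III 3 and 5 of 9 were lower, and in complex IV 4 and 7 of 13. The complex IV medians were 0.04 and -0.13. The mitochondrial genes, short too, then had medians of 0.30 and 0.22, with 7 and 6 of 13 higher and none lower. ND4L turned to 0.20 and 0.11, COX6A1 and COX8A at 12 h to 0.22 and 0.0050 and ND3 at 24 h to 0.25 on that scale. The difference between the genomes thus remained in the same direction while both levels shifted. The part of length and GC content in the result was not tested.

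**Figure D4:**
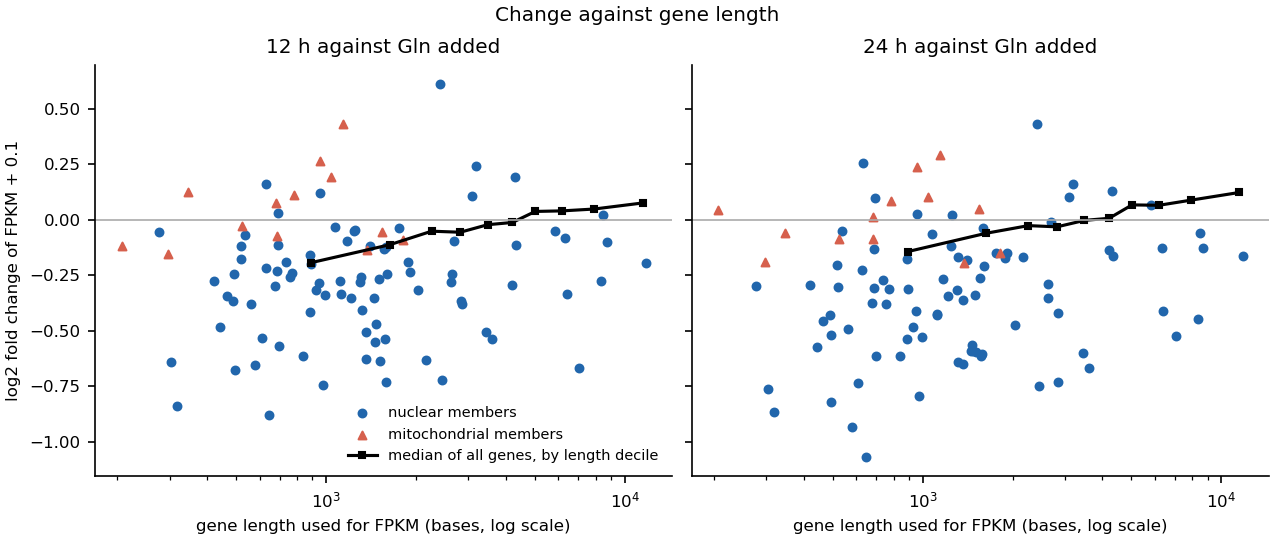
Log2 fold change (vertical axis, FPKM + 0.1) against the gene length used for FPKM (horizontal log axis, bases), at 12 h and 24 h. Circles are nuclear members, triangles mitochondrial genes, and the line joins medians of all tested genes by length decile. At 24 h the 35 nuclear members under 1000 bases have a median of -0.41, below the -0.14 of all genes of that length.

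Genes that work beside the members moved as follows. Of 15 tested genes of complex II and the electron carriers, 8 (53.3%) were lower and 3 (20%) higher at 12 h, and 10 (66.7%) and 2 (13.3%) at 24 h. Of all tested genes 31% were lower and 29.1% higher at 12 h, and 31.7% and 33% at 24 h. CYCS, the soluble electron carrier cytochrome c, went from 35.8 ± 2.16 FPKM (SD, n = 3) to 24.9 ± 2.94 and 26.8 ± 3.90, a change of -0.53 and -0.43. The complex II assembly factor SDHAF4 changed by -0.37 and -0.71 and DHODH, which feeds electrons from pyrimidine synthesis to ubiquinone, by -0.34 and -0.62. SDHAF1, which helps insert the iron-sulfur clusters of complex II, rose by 0.38 and 0.30. SDHA, the catalytic subunit, differed by -0.02 and -0.04, which did not pass.

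Of 45 tested assembly factors outside the NDUFAF genes, 22 (48.9%) were lower and 6 (13.3%) higher at each time. The shares over all tested genes were 31% lower and 29.1% higher at 12 h, and 31.7% and 33% at 24 h. COA3, which acts on newly made COX1 protein, had 104, 100.3 and 101.4 FPKM where Gln was added, 49.3, 42.6 and 42.1 FPKM where it was withheld for 12 h and 46.8, 39.2 and 46.9 FPKM for 24 h. No deprived library came near the Gln-added ones, and the changes of -1.19 and -1.20 went beyond those of every nuclear member. PET117, a complex IV factor of low level, changed by -1.29 at 12 h, and its 24 h value of -0.65 did not pass. COX19, a copper-handling factor, rose by 0.74 and 0.84, and COX10, which makes heme O for COX1, by 0.48 and 0.29. ACAD9, the partner of NDUFAF1, fell by 0.57 at both times.

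Of 31 tested genes of mitochondrial transcription and RNA handling, 7 (22.6%) were lower and 8 (25.8%) higher at 12 h, and 10 (32.3%) and 8 (25.8%) at 24 h, beside 31% and 29.1% of all tested genes at 12 h and 31.7% and 33% at 24 h. POLRMT, the mitochondrial RNA polymerase, had 25.8, 26.5 and 25.1 FPKM under Gln supply, against 35.6, 37.6 and 34.4 FPKM at 12 h without it and 39.3, 35.3 and 35.1 FPKM at 24 h. TWNK, the helicase of mitochondrial DNA replication, had 12.2, 12.96 and 11.8 FPKM in the Gln-added libraries, 20.7, 20.9 and 19.7 FPKM after 12 h and 20.6, 18.8 and 19.6 FPKM after 24 h of deprivation. Both stood higher in all 6 deprived libraries, POLRMT by 0.47 and 0.50 and TWNK by 0.72 and 0.67. TFAM, which packs mitochondrial DNA and starts its transcription, differed by 0.04 and -0.02 and did not pass. MRPL12, a ribosomal protein that also binds POLRMT, fell by 0.46 and 0.33, and SLIRP, which with LRPPRC protects mitochondrial messengers, by 0.36 and 0.46.

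Of 11 tested nuclear regulators of respiratory genes, 7 (63.6%) were higher at 12 h and 5 (45.5%) at 24 h, beside 29.1% and 33% of all tested genes. At both times limma called none lower (0 at an unadjusted p of 0.05 and 0 by voom), beside 31% and 31.7% of all tested genes. With length and GC content removed, 6 were higher at 12 h and 4 at 24 h, and PPARA was called lower at both times and HCFC1 at 24 h. PPARGC1A, the coactivator known for raising mitochondrial gene expression, had 1.15, 1.16 and 1.16 FPKM where Gln was added, 2.61, 2.62 and 3.07 FPKM where it was withheld for 12 h and 3.65, 4.003 and 4.09 FPKM for 24 h. ESRRA, a nuclear receptor that works with it, had 15.8, 15.2 and 14.8 FPKM under Gln supply, against 25.5, 23.8 and 23.2 FPKM at 12 h without it and 26.4, 21.7 and 24.7 FPKM at 24 h. Each deprived library was above each Gln-added one for both, with changes of 1.19 and 1.67 for PPARGC1A and 0.66 and 0.66 for ESRRA. NRF1, a factor that binds promoters of many respiratory genes, rose by 0.17 at 12 h and differed by -0.03 at 24 h, and GABPA, another such factor, by 0.03 and 0.04.

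Promoter sequence, which the choice of members did not use, was read in RefSeq windows of 250 bases before to 50 bases after each start (GRCh38.p14), found for 75 of the 90 nuclear protein-coding members. Letters of 4 factors were searched on both strands. The NRF1 core GCATGCGC was in windows of 14 members (18.7%) and of 3.68% of all 27305 genes, the ETS letters CCGGAAG bound by GABPA in 21 (28%) and 12.2%, and the YY1 letters ATGGCGGC in 12 (16%) and 3.67%. The letters TGATGCAA, bound by ATF4 with a CEBP partner, were in 0 members and 1.08% of all genes. At 24 h 7 of the 14 tested members with the NRF1 core were lower, with a median of -0.19, and 49 of the 58 without it, with a median of -0.37. For the ETS letters the counts were 17 of 21 and 39 of 51, with medians of -0.32 and -0.35. These are counts of letters and no test was made of them.

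The windows of 4 members are printed because they span the range of changes: ATP5MC1 with the largest fall, ATP5MC2 with the later fall, UQCR10 with the largest fall of complex III and NDUFAF4 with the largest rise. Capitals mark the searched letters on either strand. ATP5MC1 (chr17:48892537-48892836, plus strand) holds none of the 4. ATP5MC2 (first of 3 windows, chr12:53676034-53676333, minus strand) holds the NRF1 core at base -40 from the start. Of the ATP5MC2 windows not printed, another holds the NRF1 core on the other strand at base -58, and the remaining window holds none of the 4. UQCR10 (chr22:29767119-29767418, plus strand) holds the YY1 letters at base 31, and NDUFAF4 (chr6:96897842-96898141, minus strand) the ETS letters at base -147 and the NRF1 core, on the other strand, at base 7.
ATP5MC1: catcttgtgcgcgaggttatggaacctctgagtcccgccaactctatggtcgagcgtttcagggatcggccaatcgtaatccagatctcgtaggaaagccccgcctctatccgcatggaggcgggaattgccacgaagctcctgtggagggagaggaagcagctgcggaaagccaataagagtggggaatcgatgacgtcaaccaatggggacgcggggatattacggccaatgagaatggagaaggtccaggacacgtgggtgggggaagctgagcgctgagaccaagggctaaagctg
ATP5MC2: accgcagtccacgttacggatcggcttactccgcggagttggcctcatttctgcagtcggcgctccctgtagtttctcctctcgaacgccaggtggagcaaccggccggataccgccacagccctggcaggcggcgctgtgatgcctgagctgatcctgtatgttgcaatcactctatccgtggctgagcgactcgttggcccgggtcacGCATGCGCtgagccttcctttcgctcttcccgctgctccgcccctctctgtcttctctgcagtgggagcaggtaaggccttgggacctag
UQCR10: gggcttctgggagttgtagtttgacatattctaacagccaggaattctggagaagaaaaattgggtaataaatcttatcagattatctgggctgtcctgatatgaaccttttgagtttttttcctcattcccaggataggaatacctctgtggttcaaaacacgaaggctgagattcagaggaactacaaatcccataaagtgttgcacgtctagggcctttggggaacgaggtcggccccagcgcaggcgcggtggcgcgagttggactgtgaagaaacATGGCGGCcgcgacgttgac
NDUFAF4: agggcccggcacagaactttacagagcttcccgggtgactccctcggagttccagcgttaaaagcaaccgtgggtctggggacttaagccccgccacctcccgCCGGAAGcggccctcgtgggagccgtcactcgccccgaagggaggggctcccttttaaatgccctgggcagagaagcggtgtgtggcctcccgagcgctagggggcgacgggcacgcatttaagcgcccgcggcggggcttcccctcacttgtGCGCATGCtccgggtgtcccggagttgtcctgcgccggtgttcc

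Of the 6 non-coding transcripts, only NDUFB2-AS1 and NDUFV2-AS1 passed the filter. NDUFB2-AS1 had 1.12, 1.06 and 0.665 FPKM in the Gln-added libraries, 0.512, 0.452 and 0.590 FPKM after 12 h and 0.593, 1.02 and 1.01 FPKM after 24 h of deprivation, and its change of -0.74 at 12 h passed the test (limma adjusted p = 0.0176), but 42.7% of its exonic bases lie opposite other exons, and the sources used here do not settle whether the libraries kept strand. NDUFV2-AS1 did not pass at either time. The other 4 stayed under 0.5 FPKM.

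The libraries held 29621270 to 36261546 fragments on genes, and mitochondrial genes took 5.71% to 6.64% of them, the highest share in replicate 2 of the 24 h group. All 10 liver markers, ALB and AFP among them, stood over 10 FPKM, with a sum of 7563 to 7663 FPKM in the Gln-added, 6627 to 6698 in the 12 h and 6401 to 6734 in the 24 h libraries. Of 10 listed markers of leukocytes, endothelium, fibroblasts and bile duct in the table, 3 exceeded 1 FPKM (CD68, ACTA2 and KRT19), the others, such as COL1A1, VWF and PECAM1, reached at most 0.343 FPKM in any library, and the sum of the 10 was 200.4 to 204, 126 to 142 and 126 to 131 FPKM in the same groups. Both marker sums fell beside the nuclear members, and their part in the result was not tested.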

How the data were processed

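The authors deposited FPKM per gene for 9 libraries of HepG2 cells, made from reads aligned to GRCh38 with STAR according to the methods, and the submitters' notes list HTSeq and R 3.2.0. The annotation and counting mode are not given in the sources used here, and the kits named in labels and methods differ. Members and lists were chosen with earlier results of these data known. FPKM are not counts, so limma 3.58.1 in R 4.3.3 (lmFit, eBayes with a trend) tested log2(FPKM + 0.1) of the 11880 genes whose mean reached 0.5 FPKM, fitting all 3 groups together, and p-values were adjusted by Benjamini-Hochberg over them. Fold changes on this scale understate changes of genes near 0.1 FPKM. FPKM steps gave whole fragments (tolerance 0.003) for 100% of 22587 genes. Gene lengths were chosen to make them whole, so that share is no check of the recovery. The fragments served for depth and for limma's voom as an alternative. On a simulated table they were exact in all libraries for 95.0% of genes, and for 99.9% of genes over 20 fragments. The test was also run on simulated data whose spread was set rather than measured. There 58 of 100 genes lowered by 0.3 on the log2 scale were called lower. All 100 genes raised by 1 were called higher, and 5.39% of calls were false. A gene that did not pass may therefore still have changed by about 0.3. Replicate libraries differed by more than sampling noise. Length and GC content were known for 96.1% of tested genes, and their trend was fitted with splines of 4 degrees of freedom. The NRF1 core stands for a longer motif. Genes were named as all mitochondrial members, isoform sets, the 2 largest rises and falls per complex, and further members chosen after their values were seen. Alternatives were other pseudocounts (1 and 0.01), filters, scalings, a replicate block and each library left out.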

Additional observations from a re-analysis of the deposited data

Results flagged for a closer look

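The 12 nuclear members below differed between their 12 h and 24 h effects, which was tested as the difference of 24 h against 12 h in the same limma fit and is listed on the log2 scale. In ATP synthase these were ATP5MC2 at -0.35 (adjusted p = 0.000981), ATP5MC1 at -0.19, ATP5F1D at -0.19 and ATP5F1C at -0.15. In complex I they were NDUFA7 at -0.28, NDUFC1 at -0.24 (adjusted p = 0.00829), NDUFB7 at -0.23, NDUFA9 at -0.17 and NDUFS5 at -0.14, and the assembly factor NDUFAF4 at -0.18. In complex IV they were COX8A at -0.28 and NDUFA4 at -0.16. All but ATP5MC2 and NDUFC1 had adjusted p between 0.012 and 0.0438. For 11 of them the deprived cells moved further below the Gln-added level, and NDUFAF4, which had risen, came partway back. The 12 were 14.1% of the tested nuclear members, beside 10.5% of all tested genes lower at 24 h than at 12 h. Their number was 3 to 16 with single libraries left out, 4 without a filter and 3 with only the groups compared. The groups of 3 libraries are too small for a search for libraries far from their group.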

How the results depend on the processing

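The counts of nuclear members that fell at 12 h and 24 h stayed within 1.5 times under every alternative run, at 56 to 64 and 59 to 67 with single libraries left out. Nuclear members higher at 12 h, 3 in the report, were 6 under each of 3 scalings (to the same total, by median ratios, to the same total outside mitochondrial DNA), 5 with only the groups compared and 8 with length and GC removed. At 24 h they were 6, 7 and 6 with the same total, the same total outside mitochondrial DNA and length and GC removed. Nuclear medians were -0.13 and -0.23 with length and GC removed. Mitochondrial genes lower at 12 h were 0 without a filter, with the same total, with that outside mitochondrial DNA and with length and GC removed, and 2 with only the groups compared. At 24 h they were 0 without a filter, outside mitochondrial DNA and with length and GC removed, 2 with a filter of 1 FPKM or median ratios and 3 with voom. Mitochondrial genes higher were 1 without a filter at both times, 4 at 24 h outside mitochondrial DNA, and 7 and 6 with length and GC removed, where their medians were 0.30 and 0.22. Between 12 h and 24 h, 4, 3 and 5 nuclear members were lower without a filter, with only the groups compared and without a trend, and 1 was higher outside mitochondrial DNA, with voom and with length and GC removed. Of mitochondrial genes 1 was lower with voom and with length and GC removed and 1 higher with voom. The cause was not tested.

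The shared replicate numbers were not taken as pairs. Correlations of same-numbered libraries ran from -0.14 to 0.28 and those of differently numbered libraries from -0.47 to 0.30. With 3 libraries a group these values cannot exclude pairing. With a replicate block, 5 nuclear members were higher at 12 h, 2 mitochondrial genes lower at 24 h and 1 nuclear member higher at 24 h than at 12 h.

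With single libraries left out, nuclear members higher were 2 to 5 at 12 h (5 without replicate 2 of either deprived group) and 3 to 4 at 24 h, and mitochondrial genes lower were 0 to 2 and 1 to 3 and higher 2 to 4 and 2 to 3. Between 12 h and 24 h nuclear members lower were 3 to 16 and higher 0 to 2, and mitochondrial genes lower 0 to 1. Nuclear medians ran from -0.29 to -0.25 and from -0.37 to -0.30, and between the times from -0.10 to -0.02. Mitochondrial medians ran from -0.065 to 0.083 and from -0.05 to 0.07, and between the times from -0.10 to 0.01. The ratio of both genomes changed by 1.21 to 1.27 times at 12 h and by 1.20 to 1.38 times at 24 h.

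Of 2769 values of single genes under an alternative, 2572 kept their direction and their side of the threshold, 77 changed sign while past the threshold neither there nor in the report (12 of them with length and GC removed), 64 no longer passed, 51 newly passed and 5 that passed in 1 or both fits reversed, all 5 with length and GC removed: COX6A1 at 0.22 and COX8A at 0.0050 at 12 h, ND3 at 0.25 at 24 h, and ND4L at 0.20 at 12 h and 0.11 at 24 h. With 3 libraries a group, 0.1 is the smallest exact permutation p.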
